A study of Mus musculus with 6 samples.

Results

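The SLC25 family comprises the carrier proteins that move metabolites across the inner mitochondrial membrane. Members were taken by symbol: protein-coding genes of the deposited counts table whose GRCm38 symbol begins with Slc25a and a number, without the acylcarnitine carrier Slc25a20 and the citrate carrier Slc25a1, and without the uncoupling proteins, which carry Ucp names. The GENCODE M21 annotation holds 47 protein-coding genes of this naming; 41 are members, 2 were left out by the rule, and Slc25a31, Slc25a41, Slc25a43 and Slc25a54 were not analysed here. The 41 members are part of a table of 16627 genes.

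RNA was measured in the inguinal white adipose tissue (iWAT, a subcutaneous fat depot) of mice of 2 genotypes, with 3 libraries each. Celf1 AKO mice carry an adipocyte-specific knockout of Celf1, which encodes an RNA-binding protein, and Flox control mice are Celf1 fl/fl littermates, so that both genotypes carry the floxed allele. The study asked what Celf1 does in the beiging of this fat, the gain of thermogenic features by white adipocytes. Mice of both genotypes had been kept at 4 °C for 6 hours, so no library shows the tissue in the warm. The sources used here give neither the Cre driver nor the sex or age of the mice. Nor do they say how many mice a library holds, so the p-values rest on the spread among libraries, which may be technical.

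Each SLC25 protein is a small bundle of membrane helices that opens in turn to either side of the membrane, and most of them exchange one solute for another. Together they supply the matrix with ADP, phosphate, cofactors and amino acids and let out ATP and the products of the citric acid cycle. In fat, this traffic feeds both the building of fatty acids in white adipocytes and the burning of fuel in thermogenic ones, where the related uncoupling protein Ucp1 lets protons back into the matrix.

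Celf1 itself lies at chr2:90940382-91019497, plus strand on GRCm38. It stood at 52.5, 49.8 and 62.99 CPM across replicates 1 to 3 of Celf1 AKO, against 126, 114 and 144 CPM across replicates 1 to 3 of the Flox control. CPM are counts scaled to a common library size with the TMM factor, a correction for the makeup of each library. The groups did not overlap, and the Celf1 AKO mean was 43.1% of the Flox control mean, with a log2 fold change of -1.21 (SE 0.14) and an adjusted p of 0.122 in edgeR's quasi-likelihood test. DESeq2 gave an adjusted p of 2.05e-09, and edgeR without Celf1 AKO replicate 3 gave 0.0174. Fold changes are given as Celf1 AKO over Flox control throughout, and a gene is called where its p-value, adjusted over all genes tested by the Benjamini-Hochberg method, is under 0.05. Libraries held 54835348 to 64979443 counts, and none of them came from a purified cell type: in bulk tissue, fewer cells of a type and less RNA per cell cannot be told apart.

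All 41 carriers passed the filter on low counts, and none was called. Across all 16366 genes tested, the same test called 2, both higher in Celf1 AKO libraries, so the background was 0.0122% of genes for higher values, 0% for lower values and 0.0122% for either direction. At an unadjusted p under 0.05, 1 carrier was higher (2.44% of the carriers, against 6.75% of all genes) and 3 were lower (7.32%, against 6.17% of all genes). The log2 fold change was below 0 for 26 carriers (63.4%, against 52.5% of all genes) and above 0 for 15 (36.6%, against 47.5% of all genes). Its median over the carriers was -0.08, beside -0.02 over all genes, and its highest value was 1.36, for the ATP-Mg/phosphate carrier Slc25a25. These shares are near those of the whole table.

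The log2 fold change lay within 0.2 of 0 for 14 of the 41 carriers and beyond 0.5 for 5. The same counts were not made over all genes. All 3 Celf1 AKO libraries lay below all 3 Flox control libraries for 6 carriers (14.6%, against 9.51% of all genes), among them Slc25a44, Slc25a22, Slc25a39, Slc25a5 and Slc25a17. They lay above them for 1 carrier, Slc25a25 (2.44%, against 7.81% of all genes).

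DESeq2, a second count test, called 4 of the carriers, 1 as higher, Slc25a25, and 3 as lower, among them Slc25a22 and Slc25a44. It called 2.17% of the genes it tested as higher and 0.985% as lower. Without Celf1 AKO replicate 3, edgeR called 2 carriers as lower, among them Slc25a34, in a fit that called 1.43% of genes as higher and 1.76% as lower. Without Celf1 AKO replicate 2 no carrier was called, where 0.0121% of genes were higher and 0% lower. In the fits without any other single library, no carrier and 0% of genes were called.

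The levels of the carriers spanned several orders of magnitude in this fat. In FPKM, the deposited values scaled by transcript length and library size, 5 carriers averaged at least 100 over the 6 libraries, 15 lay between 10 and 100, 15 between 1 and 10, and 6 under 1. The ADP/ATP exchanger Slc25a5 stood first with a mean of 347 FPKM, ahead of the phosphate carrier Slc25a3 at 145 FPKM, the NAD+ carrier Slc25a51 at 137 FPKM, the ADP/ATP exchanger Slc25a4 at 112 FPKM, the glutathione carrier Slc25a39 at 106 FPKM and the dicarboxylate carrier Slc25a10 at 96.1 FPKM. Slc25a5 was above Slc25a3 in all libraries. The other 39 of the 40 neighbouring pairs in this order each overlapped in range over the libraries. Such ranges do not compare the carriers of a pair within a library. Slc25a51 was above Slc25a4, and Slc25a17 above Slc25a22, in every library although their ranges overlapped. For the remaining pairs the order within each library was not counted.

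The 6 most abundant carriers made up 60.8%, 64.6% and 65.0% of the summed FPKM of the family in Celf1 AKO replicates 1, 2 and 3, against 68.4%, 66.1% and 66.2% in Flox control replicates 1, 2 and 3. The summed level itself was 1421, 1402 and 1396 FPKM in the Celf1 AKO libraries and 1604, 1410 and 1440 FPKM in the Flox control libraries. The share of these 6 carriers was lower in every Celf1 AKO library than in any Flox control library, whereas the summed levels overlapped. The 6 do not include Slc25a25, next in order at 86.2 FPKM, whose range overlapped that of Slc25a10. Slc25a25 stood at 173, 116 and 84.7 FPKM in the Celf1 AKO libraries, against 72.9, 34.9 and 36.1 FPKM in the Flox control libraries. Slc25a25 thus enters the summed level but not the 6, so its higher values in the Celf1 AKO libraries lower the share there. The share with Slc25a25 left out of the sum was not computed, so the separation does not describe the 6 alone. It is given for a cut at 6 only, and other cuts were not made. Flox control replicate 1 stood above the others in both the share of the 6 and the summed level, and it was the highest library of all for 13 of the 41 carriers. At the low end, the oxoadipate carrier Slc25a21 averaged 0.0958 FPKM, the ornithine carrier Slc25a2 0.115 FPKM and the aspartate/glutamate carrier Slc25a13 0.163 FPKM, while its close relative Slc25a12 averaged 2.20 FPKM.

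**Figure D1:**
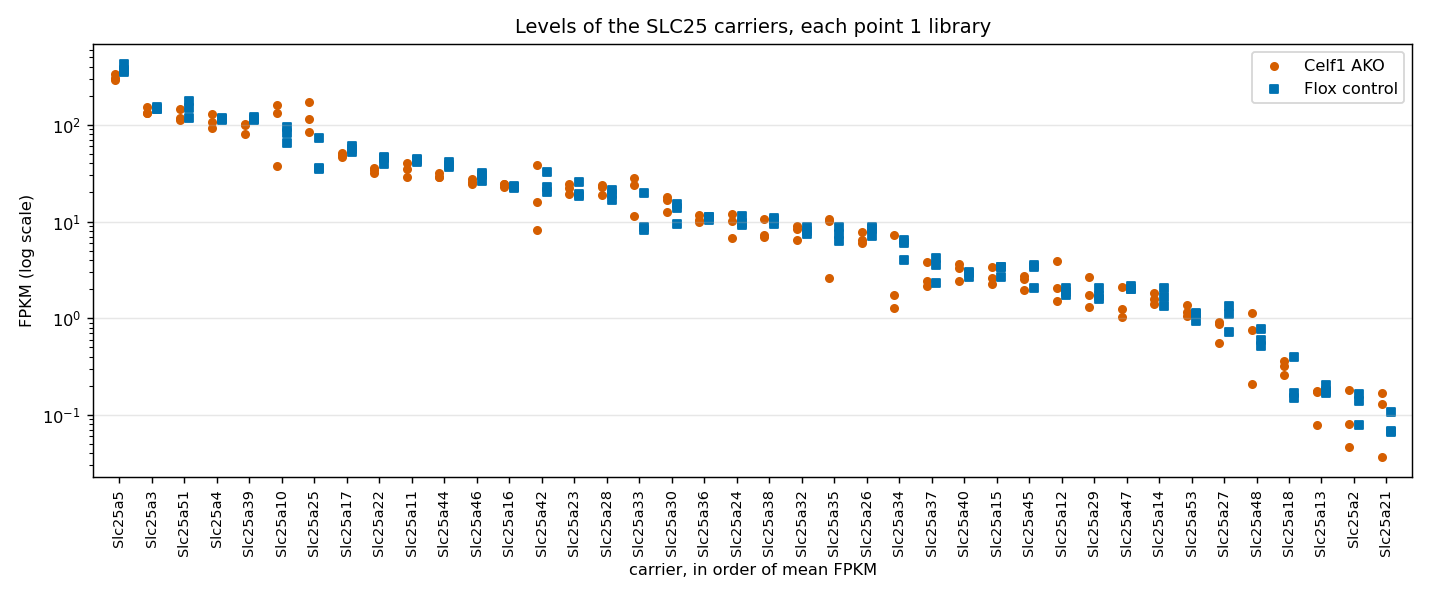
Deposited FPKM on a log axis of 40 carriers, in order of their mean over the 6 libraries; each point is 1 library, circles Celf1 AKO and squares Flox control. Slc25a5 stands first with a mean of 347 FPKM and Slc25a21 last with 0.0958 FPKM, and for most carriers the points of both genotypes overlap.

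Carriers of adenine nucleotides and phosphate keep the ATP synthase supplied. Of the 6 members of this group, 4 had a log2 fold change below 0 and 2 above it. The median was -0.07. Leaving out Celf1 AKO replicate 3 made it -0.14, and leaving out Celf1 AKO replicate 1 made it 0.04. Slc25a25 stood apart from the rest. It is a calcium-regulated carrier that exchanges ATP-Mg for phosphate and so sets the size of the adenine nucleotide pool in the matrix.

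Slc25a25, at chr2:32414487-32451445, minus strand, stood at 659.9, 468 and 311 CPM across replicates 1 to 3 of Celf1 AKO, against 298, 128 and 134 CPM across replicates 1 to 3 of the Flox control. All Celf1 AKO libraries lay above all Flox control libraries, although the lowest of them, replicate 3, and the highest Flox control library, replicate 1, lay close together. The mean was 479.8 ± 175 CPM for Celf1 AKO and 187 ± 96.7 CPM for the Flox control (SD, n = 3 each), so the Celf1 AKO mean was 257% of the other. The log2 fold change was 1.36 (SE 0.40), edgeR giving an adjusted p of 0.289 and DESeq2 one of 0.0201. Leaving out 1 library at a time gave log2 fold changes of 1.10 to 1.87. Its kin Slc25a23 and Slc25a24, which carry the same solutes, had log2 fold changes of 0.08 and -0.08. The difference between Slc25a25 and its kin was not tested. Exons of Slc25a25 share 4.82% of their bases with Naif1 on the opposite strand, and no source used here gives the strand setting.

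Since Slc25a25 had the highest log2 fold change of the family, 1 of its promoter windows is shown, from RefSeq on GRCm38.p6. Of the 41 carriers, 31 had a window in the promoter table, which runs from 250 bases before to 50 bases after an annotated start, and Slc25a25 had 3 windows. The cAMP response element, bound by factors of the CREB family, was searched as TGACGTCA on both strands. It was found in 1 window of Slc25a25, at chr2:32424017-32424316 on the minus strand, beginning 150 bases before the start. The window at the outermost start of the gene, chr2:32451421-32451720, did not hold it, nor did that at chr2:32431102-32431401. Which start is used in this fat was not tested. Slc25a36, a carrier of pyrimidine nucleotides, was the only other carrier with the element. There it lay at chr9:97110992-97111291 on the minus strand, 161 bases before the start. Both windows are given 5′ to 3′ with the element in capitals.
Slc25a25: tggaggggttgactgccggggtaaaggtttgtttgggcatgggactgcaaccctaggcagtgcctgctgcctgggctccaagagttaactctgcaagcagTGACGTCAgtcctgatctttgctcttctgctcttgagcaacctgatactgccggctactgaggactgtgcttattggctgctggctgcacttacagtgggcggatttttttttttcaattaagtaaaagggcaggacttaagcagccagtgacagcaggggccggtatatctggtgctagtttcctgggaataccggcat
Slc25a36: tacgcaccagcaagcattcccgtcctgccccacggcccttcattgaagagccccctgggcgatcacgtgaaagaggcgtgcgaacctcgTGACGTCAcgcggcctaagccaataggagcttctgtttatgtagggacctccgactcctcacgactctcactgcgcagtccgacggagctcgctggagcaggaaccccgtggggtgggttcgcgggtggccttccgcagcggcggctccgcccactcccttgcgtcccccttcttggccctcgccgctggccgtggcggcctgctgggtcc

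The element thus stood in 2 of the 31 carriers with a window (6.45%), and in 2.03% of the 27025 genes in the promoter table. Slc25a36 had a log2 fold change of -0.03, unlike that of Slc25a25. The letters TNAAGGTCA, an element of the oestrogen-related receptors, were in the window of none of the 31 carriers and of 1.43% of all genes. The ETS site CCGGAAG was in 5 carriers (16.1%) and 9.93% of all genes.

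The ADP/ATP exchangers and the phosphate carrier differed less than Slc25a25. Slc25a5 stood at 378, 382 and 401 CPM across replicates 1 to 3 of Celf1 AKO, against 572, 421 and 441 CPM across replicates 1 to 3 of the Flox control. The groups did not overlap, the Flox control values being led by replicate 1, and the log2 fold change was -0.30 (SE 0.15, adjusted p = 0.430 by edgeR), or -0.16 without Flox control replicate 1. A processed pseudogene in the table, Gm5529, matches 900 bases of Slc25a5 transcript at 96.8% identity, so reads could be split between them and the value is uncertain.

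Slc25a4, the exchanger that prevails in heart and muscle, stood at 178, 218 and 239 CPM in the Celf1 AKO libraries, against 241, 214 and 211 CPM in the Flox control libraries. Slc25a3 stood at 534, 575 and 599 CPM in the Celf1 AKO libraries, against 669, 567 and 573 CPM in the Flox control libraries. Both overlapped between the groups, with log2 fold changes of -0.07 and -0.08. The FPKM of Slc25a5 was 3.30, 2.71 and 2.61 times that of Slc25a4 in the Celf1 AKO libraries and 3.69, 3.05 and 3.25 times in the Flox control libraries, which overlapped.

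Carriers of other nucleotides and of cofactors supply the matrix with building blocks of nucleic acids and with coenzymes. Of these 9 members, 7 had a log2 fold change below 0 and 2 above it, with a median of -0.21. Leaving out Celf1 AKO replicate 1 gave a median of -0.10 and leaving out replicate 1 of the Flox control gave -0.02, with 5 of the 9 below 0 in each fit. Leaving out Celf1 AKO replicate 2 gave -0.14, and replicate 3 of the Flox control -0.11.

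Slc25a33, a pyrimidine nucleotide carrier, stood at 44.8, 55.97 and 20.7 CPM across replicates 1 to 3 of Celf1 AKO, against 40.4, 14.8 and 15.99 CPM across replicates 1 to 3 of the Flox control. The groups overlapped: Celf1 AKO replicates 1 and 2 and Flox control replicate 1 were high, and the other 3 libraries were low. The log2 fold change was 0.77 (SE 0.47, adjusted p = 0.527 by edgeR). Leaving out Celf1 AKO replicate 2 gave 0.47, replicate 2 of the Flox control 0.52 and replicate 1 of the Flox control 1.39. Its exons share 14.9% of their bases with the antisense gene Gm13068, and since no source used here gives the strand setting, the reads of such pairs cannot be told apart.

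Slc25a51, which brings NAD+ into the matrix, stood at 529, 527 and 632 CPM in the Celf1 AKO libraries, against 842, 499.7 and 637 CPM in the Flox control libraries. The groups overlapped, with the highest value in Flox control replicate 1, and the log2 fold change was -0.23. Slc25a17, which serves peroxisomes rather than mitochondria and carries coenzyme A, FAD and NAD, stood at 80.5, 81.6 and 82.9 CPM in the Celf1 AKO libraries, against 109, 83.9 and 90.4 CPM in the Flox control libraries. Its Celf1 AKO values all lay just below the lowest Flox control value, with a log2 fold change of -0.21 and an adjusted p of 0.498 by edgeR.

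The group also held the S-adenosylmethionine carrier Slc25a26, the carrier of folate and FAD Slc25a32, the coenzyme A carrier Slc25a42, Slc25a16, which is tied to coenzyme A in the matrix, and Slc25a36. Their log2 fold changes ran from -0.30 for Slc25a42 to 0.08 for Slc25a16. The value of Slc25a36 is uncertain, since the pseudogene Gm13217 in the table matches 544 bases of it at 99.6% identity.

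**Figure D2:**
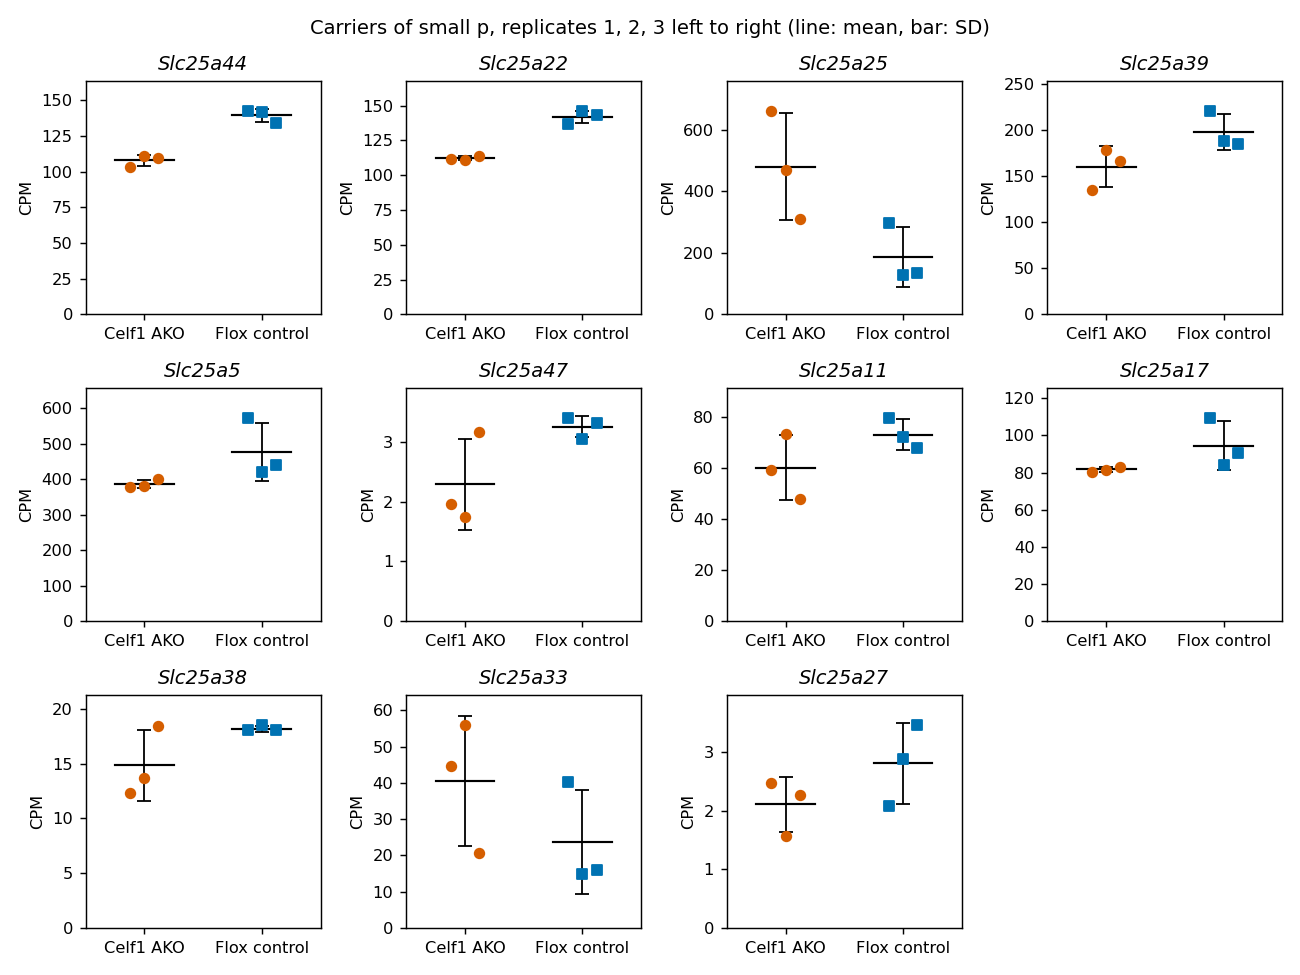
CPM of 11 carriers of small edgeR p among those with a mean of at least 1 CPM, with Celf1 AKO on the left and Flox control on the right of each panel; points are replicates 1, 2 and 3 from left to right, lines are means and bars SDs (n = 3). Slc25a25 (mean 479.8 ± 175 CPM for Celf1 AKO, 187 ± 96.7 CPM for the Flox control) differs most in its means among the panels whose groups do not overlap.

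Amino acid carriers numbered 9, of which 6 had a log2 fold change below 0 and 3 above it, with a median of -0.27. Leaving out Celf1 AKO replicate 1 gave -0.14, and replicate 3 of that group -0.18. Slc25a44 imports branched-chain amino acids and is known in brown fat for supplying them to thermogenesis. It stood at 103, 111 and 109.8 CPM across replicates 1 to 3 of Celf1 AKO, against 142, 142 and 134 CPM across replicates 1 to 3 of the Flox control. The spread within each group was small beside the gap between them, at a log2 fold change of -0.37 (SE 0.10) and adjusted p-values of 0.259 in edgeR and 0.0477 in DESeq2.

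Slc25a22, a glutamate carrier, showed values of the same kind. It stood at 111, 111 and 114 CPM across replicates 1 to 3 of Celf1 AKO, against 137, 146 and 143 CPM across replicates 1 to 3 of the Flox control. The groups did not overlap, at a log2 fold change of -0.34 (SE 0.10) and adjusted p-values of 0.279 in edgeR and 0.0413 in DESeq2. At 38.9 FPKM on average it was the most abundant amino acid carrier, with Slc25a44 next at 34.5 FPKM. The ranges of these levels over the libraries overlapped, but Slc25a22 was above Slc25a44 in every library.

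Slc25a38 brings in glycine, the starting material of haem. It stood at 12.3, 13.7 and 18.5 CPM across replicates 1 to 3 of Celf1 AKO, against 18.03, 18.5 and 18.1 CPM across replicates 1 to 3 of the Flox control. Celf1 AKO replicates 1 and 2 lay below the Flox control libraries and replicate 3 at their level, with a log2 fold change of -0.30 (adjusted p = 0.502 by edgeR). The other 6 members were the aspartate/glutamate carriers Slc25a12 and Slc25a13, the ornithine carriers Slc25a15 and Slc25a2, the glutamate carrier Slc25a18 and the carrier of basic amino acids Slc25a29. Their log2 fold changes ran from -0.36 for Slc25a13 to 0.39 for Slc25a12.

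The group of carboxylate and oxo acid carriers held 3 members, with log2 fold changes of -0.28, 0.48 and 0.50 for Slc25a11, Slc25a10 and Slc25a21. Slc25a10 exchanges malate or succinate for phosphate and is abundant in white fat. It stood at 271, 345 and 73.8 CPM across replicates 1 to 3 of Celf1 AKO, against 207, 159 and 129 CPM across replicates 1 to 3 of the Flox control. Celf1 AKO replicates 1 and 2 were the highest of all libraries and replicate 3 the lowest of all, so the SE of 0.49 exceeded the log2 fold change of 0.48; without replicate 3 the log2 fold change was 0.90, with an adjusted p of 0.0710 by edgeR, and without Celf1 AKO replicate 2 it was 0.06.

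Slc25a11, the oxoglutarate/malate exchanger of the malate-aspartate shuttle, stood at 59.2, 73.3 and 47.9 CPM in the Celf1 AKO libraries, against 79.6, 72.1 and 67.9 CPM in the Flox control libraries. The groups overlapped (adjusted p = 0.498 by edgeR). Its exons share 8.92% of their bases with Rnf167 on the opposite strand. Those of Slc25a10 share 6.60% of theirs with the antisense gene Gm11788.

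Iron and glutathione carriers numbered 4, with 2 log2 fold changes below 0 and 2 above it. Slc25a39, which brings glutathione into the matrix, stood at 136, 179 and 166 CPM across replicates 1 to 3 of Celf1 AKO, against 221, 188 and 185 CPM across replicates 1 to 3 of the Flox control. The groups were apart by a narrow margin, the Celf1 AKO values being lowest in replicate 1 and the Flox control values highest in replicate 1, with a log2 fold change of -0.30 (SE 0.14, adjusted p = 0.417 by edgeR), or -0.16 without Celf1 AKO replicate 1. The log2 fold change was 0.16 for its relative Slc25a40, -0.25 for the iron carrier Slc25a37 and 0.21 for the iron carrier Slc25a28. Slc25a37, the iron carrier that prevails in red cell precursors, overlapped between the groups. Slc25a40 and Slc25a37 each match another gene at 95% identity or more over at least 300 bases, so their values are uncertain.

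The relatives of the uncoupling proteins within the family were Slc25a14, Slc25a27 and Slc25a30. Slc25a30, best known from kidney, was the most abundant of them and stood at 21.3, 30.6 and 29.2 CPM in the Celf1 AKO libraries, against 27.8, 22.8 and 15.7 CPM in the Flox control libraries. Slc25a27, best known from brain, stood at 2.48, 1.57 and 2.27 CPM in the Celf1 AKO libraries, against 2.08, 2.88 and 3.46 CPM in the Flox control libraries. Both overlapped between the groups, with log2 fold changes of 0.29 and -0.41, and Slc25a14 had -0.04.

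The remaining 7 members have other roles or no settled cargo, and their log2 fold changes ran from -0.71 to 0.20. Slc25a46 sits in the outer membrane and acts in the shaping of mitochondria. It stood at 113, 114 and 115 CPM in the Celf1 AKO libraries, against 147, 109 and 129 CPM in the Flox control libraries. The groups overlapped, with a log2 fold change of -0.17. The exons of Slc25a46 share 7.06% of their bases with B930094E09Rik on the opposite strand. Slc25a47, a carrier known from liver, stood at 1.97, 1.74 and 3.17 CPM in the Celf1 AKO libraries, against 3.40, 3.06 and 3.32 CPM in the Flox control libraries. Its values overlapped through Celf1 AKO replicate 3, with a log2 fold change of -0.51 (adjusted p = 0.484 by edgeR). Slc25a34, Slc25a35, Slc25a45, Slc25a53 and the choline carrier Slc25a48 made up the rest.

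**Figure D3:**
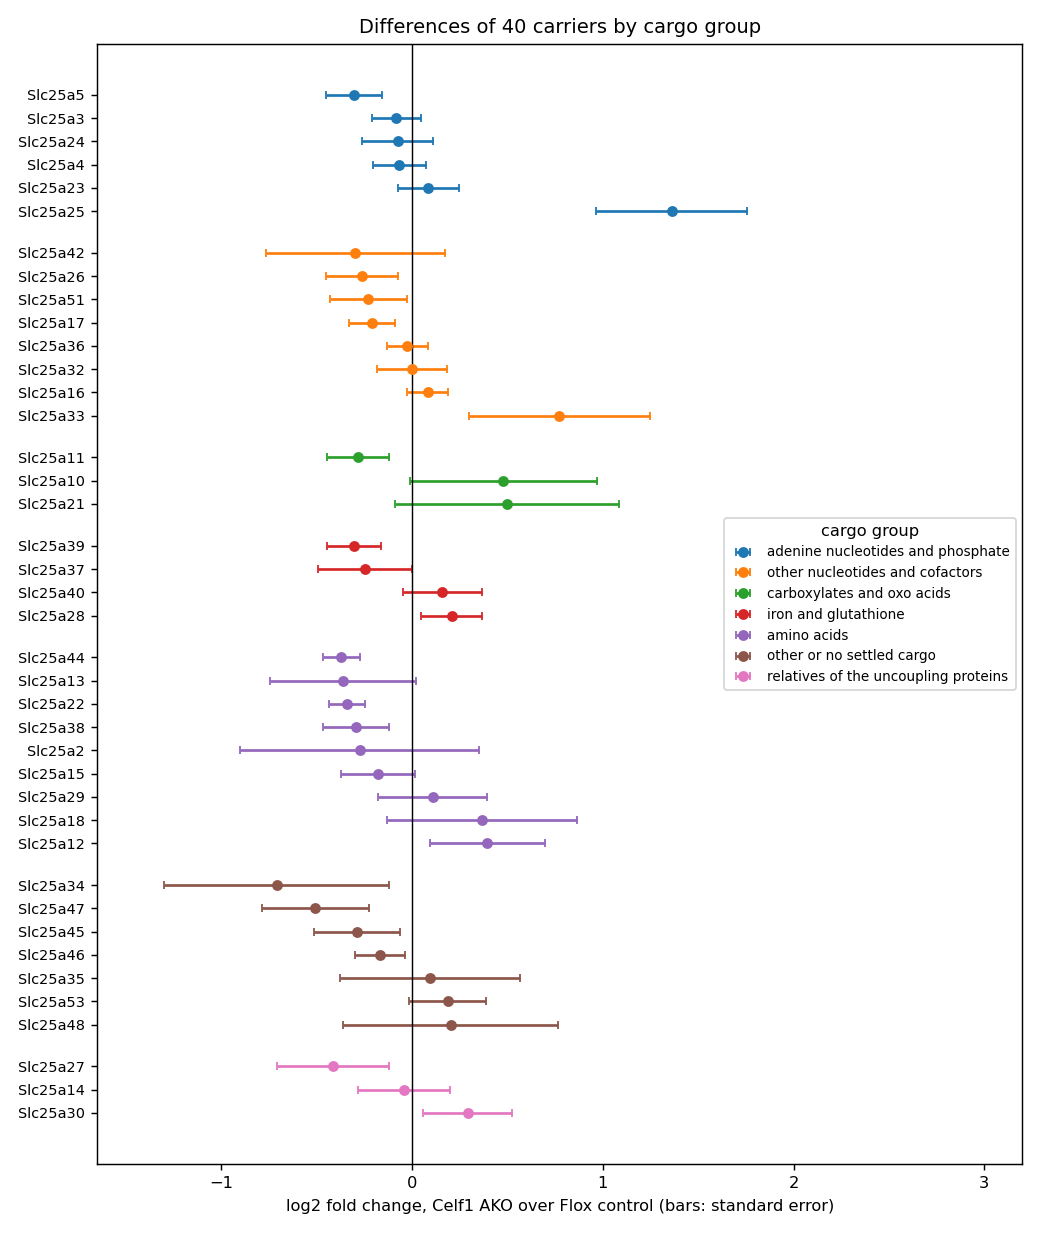
Log2 fold changes of 40 carriers, Celf1 AKO over Flox control, by cargo group; points are the fitted values of edgeR and bars their standard errors. Slc25a25 at 1.36 lies farthest from 0 among those drawn, and 14 carriers lie within 0.2 of it.

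Celf1 AKO replicate 3 differed from the other Celf1 AKO libraries for several carriers; Slc25a34, Slc25a35, Slc25a42, Slc25a12 and Slc25a48 are named after their values were seen. Slc25a34 stood at 4.66, 3.65 and 18.5 CPM in the Celf1 AKO libraries, against 17.1, 10.3 and 16.6 CPM in the Flox control libraries. Slc25a42 stood at 57.7, 31.9 and 134 CPM in the Celf1 AKO libraries, against 89.1, 71.3 and 115 CPM in the Flox control libraries. In both, Celf1 AKO replicates 1 and 2 were below every Flox control library and replicate 3 above every one of them.

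Without replicate 3, the log2 fold change of Slc25a34 was -1.82 (adjusted p = 0.0282 by edgeR), against -0.71 with it, and that of Slc25a42 was -1.04 (adjusted p = 0.108), against -0.30 with it. Slc25a35 stood at 38.9, 39.6 and 9.19 CPM in the Celf1 AKO libraries, against 24.8, 30.95 and 26.4 CPM in the Flox control libraries, and Slc25a48 at 2.53, 4.09 and 0.676 CPM in the Celf1 AKO libraries, against 2.16, 2.51 and 1.67 CPM in the Flox control libraries. Here replicate 3 was the lowest of the 6 libraries, as it was for Slc25a10. The exons of Slc25a35 share 31.3% of their bases with Rangrf on the opposite strand.

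Slc25a12 stood at 12.9, 10.2 and 24.1 CPM in the Celf1 AKO libraries, against 11.96, 12.5 and 11.5 CPM in the Flox control libraries, so that replicate 3 alone stood above the other 5 libraries. Acta1, the actin of skeletal muscle and the only muscle marker of the 11 listed that was analysed here, was at 23.1, 70.6 and 1039 CPM in the Celf1 AKO libraries, against 45.1, 75.2 and 33.5 CPM in the Flox control libraries. It was highest in the same library. Without replicate 3 the log2 fold change of Slc25a12 was -0.05, against 0.39 with it, and the part of muscle RNA in these values was not tested.

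**Figure D4:**
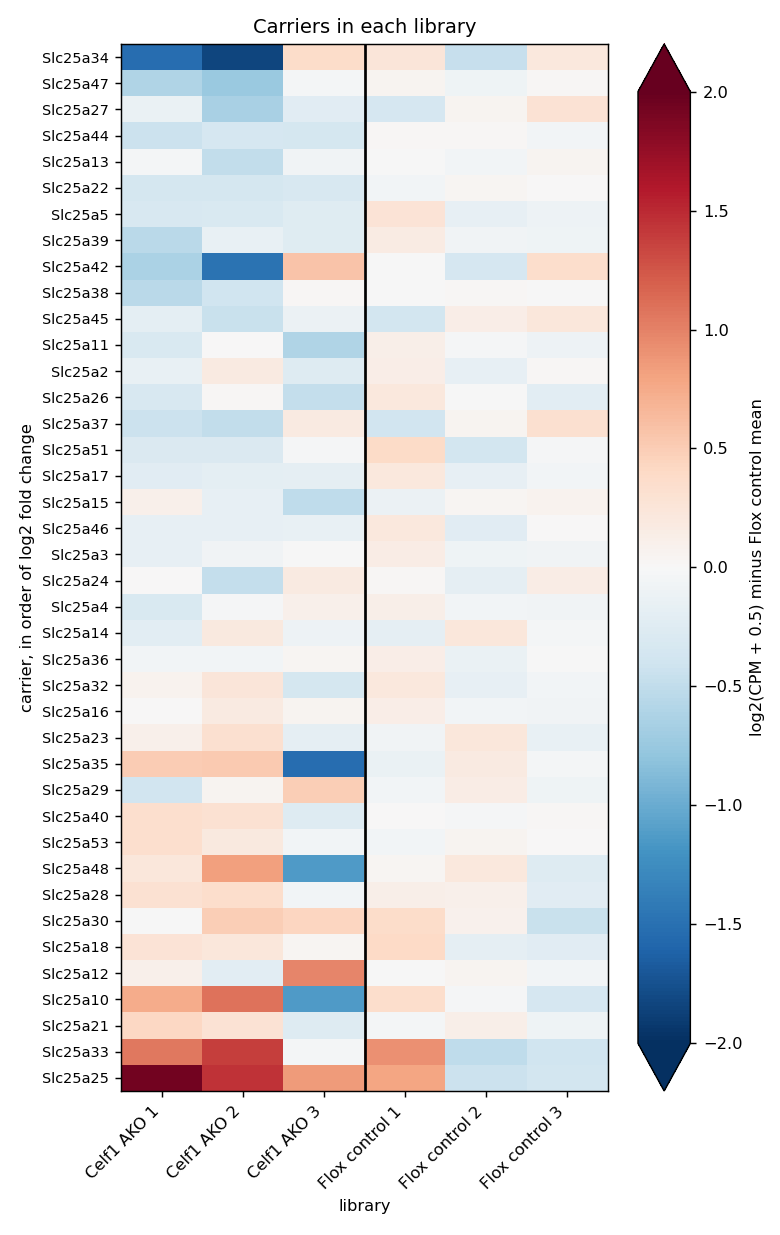
Carriers (40 rows, in order of log2 fold change) in each of the 6 libraries (columns, Celf1 AKO 1 to 3, then Flox control 1 to 3); colour is log2(CPM + 0.5) minus the mean of the Flox control libraries. Slc25a25 is above that mean in all Celf1 AKO libraries, while Slc25a34, Slc25a42, Slc25a35, Slc25a48 and Slc25a10 change sign between Celf1 AKO replicate 3 and the other Celf1 AKO libraries.

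Cell type markers were read in the same libraries, from lists chosen with earlier results of these data known. Mature adipocyte markers were abundant in every library of this fat, with a summed level of 48177 to 58204 CPM for Celf1 AKO and 52415 to 60056 CPM for the Flox control; 8 of 11 had a log2 fold change below 0 (median -0.06), and 4 of 11 (median 0.06) without Celf1 AKO replicate 1. Of the 9 brown and beige adipocyte markers 8 were below 0 (median -1.08), with summed levels of 208 to 466 CPM for Celf1 AKO and 902 to 983 CPM for the Flox control. Endothelial markers (7 of 8 above 0, median 0.60) summed to 1020 to 1190 CPM for Celf1 AKO and 590 to 861 CPM for the Flox control.

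Erythroid markers (8 of 8 above 0, median 0.87) summed to 604, 565 and 1290 CPM across replicates 1 to 3 of Celf1 AKO, against 355 to 594 CPM for the Flox control. Replicate 3 led, and without it the median was 0.38, with 7 of 8 above 0. Neutrophil markers (7 of 7 above 0, median 2.67) summed to 24.4, 27.6 and 114 CPM across replicates 1 to 3 of Celf1 AKO, against 3.41 to 17.4 CPM for the Flox control. Replicate 3 led again, and without it the median was 1.12. Mammary epithelial markers (4 of 4 above 0, median 1.81) summed to 21.5, 4.53 and 3.53 CPM across replicates 1 to 3 of Celf1 AKO, against 1.01 to 4.59 CPM for the Flox control. Replicate 1 led here, and without it the median was 0.67, with 1 of 4 below 0. Macrophage markers (6 of 7 below 0, median -0.05, but 1 of 7 and 0.28 without Celf1 AKO replicate 2) and lymph node B and T cell markers (2 of 4 below 0, median 0.04) overlapped in sum. None of these markers was called by edgeR with genotype as the only term and all libraries kept. With the replicate number as a block, edgeR called Cldn5 as higher and Lep as lower, among 12 of 16366 genes. Without Celf1 AKO replicate 3 it called Cldn5 as higher and Elovl3 as lower, where 1.43% of genes were higher and 1.76% lower. DESeq2 called the endothelial markers Cldn5, Esam and Kdr and the neutrophil marker Csf3r as higher. It called the brown and beige markers Cox7a1, Dio2 and Ucp1 as lower. Of all genes, it called 2.17% as higher and 0.985% as lower. At an unadjusted p under 0.05 in edgeR, 6 erythroid, 5 endothelial, 5 neutrophil and 2 mammary markers were higher. So were 1 lymph node and 1 brown or beige marker, while 5 brown or beige and 1 adipocyte marker were lower. Of all genes, 6.75% were higher and 6.17% lower at that threshold. On leaving out Celf1 AKO replicate 1, or Flox control replicate 2 or 3, no lymph node, brown or beige marker passed as higher. On leaving out Celf1 AKO replicate 1 or 3, or Flox control replicate 2, no adipocyte marker passed as lower. The erythroid count was 0 on leaving out Celf1 AKO replicate 3, or replicate 2 or 3 of the Flox control. The neutrophil count was 2 on leaving out replicate 3 of either group and 1 on leaving out replicate 1 of the Flox control. The mammary count was 0 on leaving out Celf1 AKO replicate 1 and 1 on leaving out replicate 1 or 3 of the Flox control. The part of these cells in the carriers' values was not tested.

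The family members outside the rule are set beside the carriers. Slc25a20 stood at 118, 139 and 228 CPM in the Celf1 AKO libraries, against 323, 266 and 334 CPM in the Flox control libraries (log2 fold change -0.93, adjusted p = 0.262 by edgeR, 0.0292 by DESeq2 and 0.0243 by edgeR without Celf1 AKO replicate 3), and Slc25a1 at 1053, 1507 and 222 CPM in the Celf1 AKO libraries, against 1004, 548 and 424 CPM in the Flox control libraries (log2 fold change 0.49). Ucp1 stood at 79.6, 4.86 and 34.01 CPM in the Celf1 AKO libraries, against 461, 567 and 495 CPM in the Flox control libraries (log2 fold change -3.69, adjusted p = 0.246 by edgeR and 0.00910 by DESeq2). Ucp2 and Ucp3 had log2 fold changes of 0.39 and 0.04. The fold of Ucp1 was thus larger than that of any of the 41 carriers, although a test of that difference was not made.

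Carrier proteins are made in the cytosol, pass the TOM pore of the outer membrane, are held by small TIM chaperones between the membranes and enter the inner membrane through the TIM22 complex. Of 16 genes of this route, 15 were tested. None was called by edgeR, but all 15 had a log2 fold change below 0, with a median of -0.48, beside -0.02 over all genes and -0.08 over the carriers. All Celf1 AKO libraries lay below all Flox control libraries for 10 of the 15 (66.7%, against 9.51% of all genes), and 9 had an unadjusted p under 0.05 as lower (60%, against 6.17% of all genes).

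Timm22, the channel of the carrier translocase, stood at 13.1, 17.03 and 15.7 CPM across replicates 1 to 3 of Celf1 AKO, against 29.2, 25.7 and 24.99 CPM across replicates 1 to 3 of the Flox control, with a log2 fold change of -0.80 (SE 0.14, adjusted p = 0.227 by edgeR and 0.00120 by DESeq2). Tomm5, a small subunit of the TOM pore, stood at 29.6, 27.7 and 34.3 CPM in the Celf1 AKO libraries, against 54.9, 46.9 and 45.8 CPM in the Flox control libraries, with a log2 fold change of -0.69 (adjusted p = 0.227 by edgeR and 0.00279 by DESeq2). Timm29, a subunit of the TIM22 complex, stood at 50.3, 50.8 and 60.4 CPM in the Celf1 AKO libraries, against 73.96, 72.7 and 78.6 CPM in the Flox control libraries, with a log2 fold change of -0.48 (adjusted p = 0.247 by edgeR and 0.0294 by DESeq2). In all of these, the highest Celf1 AKO library lay below the lowest Flox control library.

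DESeq2 called 4 of the 15 as lower, where it called 0.985% of all genes as lower, the fourth being Timm9, a chaperone of the space between the membranes. Without Celf1 AKO replicate 3, edgeR called 6 of them as lower: Timm22, Timm29, Timm8a1, Timm9, Tomm40 and Tomm5, where it called 1.76% of all genes as lower. With Celf1 AKO replicate 1 left out, 14 of 15 were below 0, the median of the 15 was -0.34 and 6 had an unadjusted p under 0.05. The difference between this list and the carriers was not tested.

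**Figure D5:**
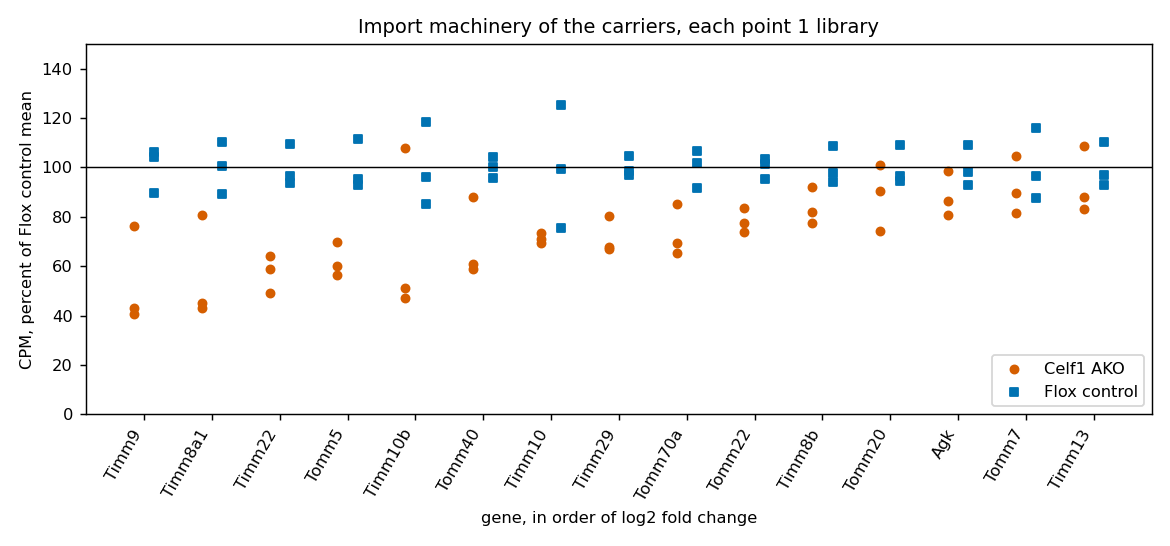
CPM of the 15 tested genes of the carrier import route in each library, as a percentage of the Flox control mean of the same gene; circles are Celf1 AKO and squares Flox control libraries, and genes are in order of log2 fold change. For 10 of the 15 genes no circle reaches the squares.

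Other routes across the mitochondrial membranes gave smaller medians. Of 20 inner membrane transporters outside the family, 14 had a log2 fold change below 0 (median -0.13, or -0.05 with 11 below 0 on leaving out Celf1 AKO replicate 3, and -0.08 on leaving out replicate 3 of the Flox control) and none was called by edgeR; among them Letm1, which acts in potassium and proton exchange, had -0.47 (adjusted p = 0.249) and the serine transporter Sfxn1 -0.24. Of 5 outer membrane channels and related proteins, 4 were below 0 (median -0.31, or -0.20 with 3 below 0 without Flox control replicate 1). The voltage-dependent channels Vdac3 and Vdac2 and the insertase Mtch2 had -0.31, -0.31 and -0.31. For these 3 of 5 (60%, against 9.51% of all genes), all Celf1 AKO libraries lay below all Flox control libraries.

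The enzymes that work with the carriers were mixed. Of 6 genes of the malate-aspartate and glycerophosphate shuttles, 4 were below 0 (median -0.19). Leaving out Celf1 AKO replicate 3 gave a median of -0.01 and leaving out replicate 1 of the Flox control gave -0.06, with 3 of 6 below 0 in each fit, while leaving out Celf1 AKO replicate 2 gave -0.32. The malate dehydrogenases Mdh1 and Mdh2 had -0.37 and -0.24, and the aspartate aminotransferase Got2 had 0.34. Of 14 genes of haem and iron-sulphur synthesis, which use the glycine and iron brought in by carriers, 7 were below 0 (median -0.01, and -0.14 to 0.06 without 1 library each). Cpox, an enzyme of haem synthesis, had -0.58. Alas2, the erythroid first enzyme of that pathway, had 1.04 and was highest in Celf1 AKO replicate 3. It is itself on the list of erythroid markers, whose sum was highest in the same library, so these are not separate observations. None of the genes of these 4 lists was called by edgeR, and DESeq2 called Letm1 alone, as lower, where it called 0.985% of all genes as lower. At an unadjusted p under 0.05 in edgeR, 6.17% of all genes were lower and 6.75% higher. Lower in the lists were 2 inner membrane genes (10%), 2 outer membrane (40%), 1 shuttle (16.7%) and 2 haem or iron-sulphur genes (14.3%). Higher was 1 haem or iron-sulphur gene (7.14%), Alas2, which is counted among the erythroid markers too. The outer membrane count was 0 on leaving out Celf1 AKO replicate 1, or replicate 1 or 3 of the Flox control, and the counts of the other lists were 0 to 3 as lower without 1 library each.

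CELF1 is known to bind GU-rich elements in 3′ UTRs and to promote the decay of transcripts that carry them. The letters TGTTTGTTT, the first 9 bases of that element, were searched on the sense strand of the longest annotated 3′ UTR of each gene in GENCODE M21. They were found in 6 of the 41 carriers (14.6%), beside 1485 of 14021 tested protein-coding genes (10.6%). The median length of the UTRs searched was 1364 bases for the carriers and 1164 bases for all genes. The carriers were Slc25a12, Slc25a32, Slc25a36, Slc25a46, Slc25a51 and Slc25a53. In Slc25a12, Slc25a32 and Slc25a51, matches followed each other 4 bases apart, and for these the first such match is given 5′ to 3′ as 28 bases of reference sequence on chromosomes 2, 15 and 4, with the searched letters in capitals.
Slc25a12: tctttttatTGTTTGTTTgttttttgag
Slc25a32: tgttgttatTGTTTGTTTgttttatttc
Slc25a51: tttttttttTGTTTGTTTgtttattttt

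The log2 fold changes of the 6 carriers were 0.39 for Slc25a12, -0.00 for Slc25a32, -0.03 for Slc25a36, -0.17 for Slc25a46, -0.23 for Slc25a51 and 0.19 for Slc25a53, and each overlapped between the groups. The value of Slc25a12 was led by Celf1 AKO replicate 3, as given above. The annotated 3′ UTR of Slc25a25 did not hold these letters.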

How the data were processed

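Raw counts per gene were used as deposited by the authors, as whole numbers with 1 column per library. The FPKM values deposited by the authors were used to compare levels between genes. HISAT2, RSEM 1.3.1, GRCm38 and mm10 are named in the submitters' processing notes without their roles; the sources used here give no annotation or strand setting. GENCODE M21 named 16528 identifiers and 99 stayed unmatched.

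Counts were tested in R 4.3.3 with edgeR 4.0.16 (robust quasi-likelihood fit, TMM scaling, genotype as the only term), after its default filter kept 16366 genes and removed 261; the test was checked on simulated data. A gene at 1 CPM rested on 54.9 to 67.8 counts per library. Errors of CPM are SDs over 3 libraries. An exact permutation test of 3 against 3 libraries cannot go below p = 0.1, so none was used.

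Alternatives were DESeq2 1.42.0, limma 3.58.1 (voom, and log2 FPKM), other scalings and filters, the replicate number as a block and leaving out each library. Values per library were given for the 12 carriers of smallest p with a mean of at least 1 CPM, the 6 of highest FPKM and the highest of each cargo group; pathway lists named up to 3 genes of smallest p. Of the genes these rules name, 1 carrier and 2 genes of the pathway lists are not reported here, though counts and medians include them. Members, lists and cargo groups were chosen with earlier results of these data known.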

Additional observations from a re-analysis of the deposited data

How the results depend on the processing

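No carrier was called by edgeR with another scaling or filter, by limma or with the replicate block; DESeq2 called 4, and the fits that left out 1 library called 0 to 2, the 2 being without Celf1 AKO replicate 3. The median log2 fold change of the carriers, -0.08, was below 0 under every alternative run: it was -0.16 with limma-voom, -0.17 on log2(FPKM + 0.1), -0.14 with the replicate block, and -0.158 to -0.0169 without 1 library each, the last without Flox control replicate 1. The cause of these shifts was not tested. Same-numbered libraries had correlated deviations of 0.07, -0.01 and 0.27, so the numbers were not taken as pairs; with the replicate block 12 genes of the table were called and none was a carrier. Depth limits Slc25a18, Slc25a13, Slc25a2 and Slc25a21, which rested on 4 to 40 counts per library, and 3 libraries a group limit all carriers: leaving out 1 library at a time changed the sign of the log2 fold change for 12 of the 41 and moved it by over 1.5 times for 37.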
